A study of Homo sapiens with 9 samples.

Results

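The lower of the doses of S100B protein in this study, 0.5 nM, was compared with no treatment in the human neuroblastoma cell line LAN-5, an established line with neuron-like features. The comparison takes the 3 arrays labelled 0.5 nM S100B and the 3 arrays labelled untreated, 6 of the 9 arrays of the series, and every probe set except the manufacturer's controls, 8746 of 8793. The remaining 3 arrays came from LAN-5 cells given S100B at 5 µM, and they entered the estimate of spread and a closing comparison of doses. All 9 arrays are of the same cell line grown in complete DMEM, with no transgene or other agent named, and the study calls its replicates biological. How long the cells were exposed, where the protein came from and whether the untreated cells received a vehicle is not given in the sources used here. Untreated cells serve as the background level, and a single cell line stands for neuroblastoma cells.

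S100B is a small calcium-binding protein of the S100 family that astrocytes make and secrete. Outside the cell it binds RAGE, the receptor encoded by AGER, which signals through MAP kinases and NF-kB. Low extracellular levels are known for promoting neurite outgrowth and neuronal survival, and high levels for toxicity, so the nanomolar dose raises the question of whether genes of trophic signalling, neurite growth and survival moved, and how large a movement the arrays would have shown.

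No transcript passed the test at 0.5 nM, and for nearly all probe sets the arrays bounded the change to less than 1.5-fold in either direction. By limma with Benjamini-Hochberg adjustment over 8746 probe sets, 0 were called at an adjusted p under 0.05 (0% of those tested), and the smallest adjusted p was 0.979. At an unadjusted p under 0.05 there were 353 probe sets, 4.04% of all, against the 437 that 5% of 8746 would make. Every other fit run also called 0. The smallest adjusted p of any of them was 0.403, without 0.5 nM replicate 1. The count at an unadjusted p under 0.05 was 674 without that array and 235 without untreated replicate 2.

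The values of probe sets at an unadjusted p under 0.05 lay lower in 266 cases (3.04% of all) and higher in 87 (0.995%). This split changed with the scaling of the arrays, and its cause was not tested. After quantile normalization it was 184 higher and 184 lower, and after centring each array on its median it was 254 higher and 113 lower. The median difference over all probe sets was -0.013 on the log2 scale as deposited, and 41.6% of probe sets lay higher, against 50.2% after quantile normalization and 58.8% after median centring. The 3 arrays of one group lay wholly above or below the 3 of the other for 669 probe sets (7.65%), 197 higher (2.25%) and 472 lower (5.4%).

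The differences themselves were small. A point estimate past 1.1-fold was seen for 556 probe sets, past 1.2-fold for 29, past a 25% rise or the equal fall for 8 and past 1.5-fold for 0. A single 95% interval lay wholly past 1.1-fold. The 12 genes with the smallest p were TFAP2C, TEKT2, PSTPIP1, CNMD, BIRC7, RAC1, SRPK3, RASL10A, INPP5E, KIF3A, SLC1A4 and PDLIM2, each at an adjusted p of 0.979. TFAP2C, a transcription factor of the AP-2 family, read 5.25, 5.19 and 5.25 log2 in untreated cells and 5.52, 5.41 and 5.47 at 0.5 nM, a difference of 0.24 ± 0.05 (SE, n = 3 per group). TEKT2, a structural protein of cilia and flagella, read 5.995, 5.89 and 5.99 untreated and 5.70, 5.71 and 5.50 at 0.5 nM, a difference of -0.32 ± 0.07. BIRC7, an inhibitor of apoptosis, read 5.84, 5.96 and 5.87 untreated and 5.72, 5.68 and 5.60 at 0.5 nM, a difference of -0.23 ± 0.05. The groups did not overlap in any of these 3 genes, but all 3 are among the dimmer probe sets of the array, and none came near the threshold.

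**Figure D1:**
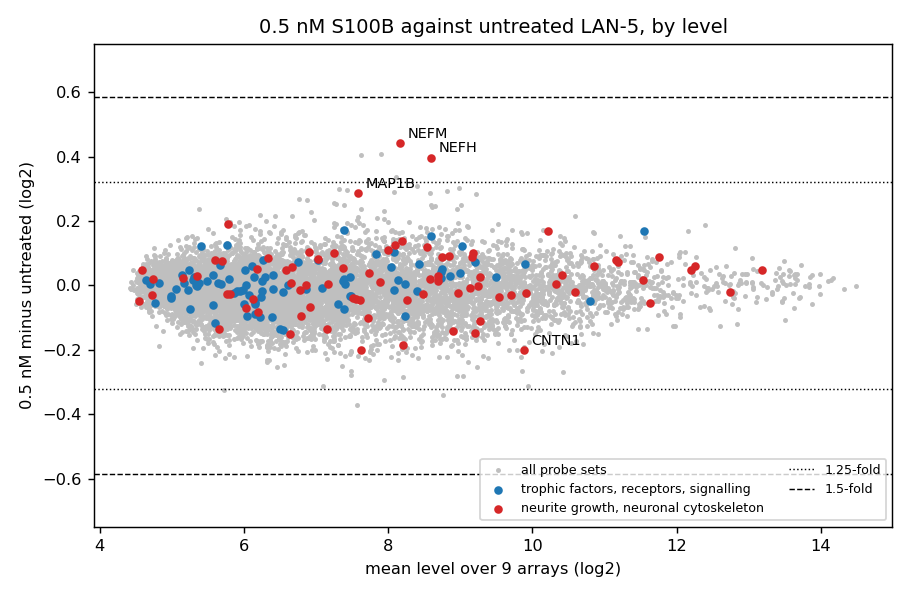
Difference between 0.5 nM S100B and untreated (log2, vertical axis) against the mean level over 9 arrays (log2, horizontal axis) for 8746 probe sets, with trophic genes in blue and neurite and cytoskeleton genes in red. Dotted lines mark the 25% margin and dashed lines 1.5-fold. No point lies past 1.5-fold, and NEFM and NEFH are the highest of the coloured points.

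How small a change could be bounded was read from the 95% interval of each difference, taking the end farther from 0 and writing it as a fold in either direction, called here the outer bound. The tightest margin used was a rise of 25% or the equal fall, 0.32 log2 in either direction, called the 25% margin. The outer bound lay within the 25% margin for 8002 probe sets (91.5%), within 1.5-fold for 8702 (99.5%) and within 2-fold for all 8746. The median half-width of the interval was 0.134 log2, and the largest outer bound was 1.95-fold. A change larger than the bound is outside the interval, while smaller changes are not told apart from none. These intervals hold for 1 probe set at a time. Widened by the Bonferroni rule to hold for all 8746 together, 48.7% stayed within 1.5-fold and 91.7% within 2-fold. Within the 25% margin 7 probe sets (0.08%) stayed, and 0 members of the gene lists below. Counts within that margin are therefore gene by gene and not joint.

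Precision differed with the level, for which the probe sets were split into dim, middle and bright classes of equal size. In the dim class, with a mean up to 5.95 log2, 98.3% of probe sets were bounded within the 25% margin, against 90.9% in the middle class and 85.4% in the bright class, above 7.56. The median half-widths were 0.112, 0.141 and 0.157 log2. A narrow interval on a dim probe set bounds its signal and not its RNA, because background correction can compress differences near the floor. The part of compression in these widths was not tested. For a lone probe set to be called after adjustment, the difference had to reach a median of 1.36-fold in the dim class, 1.48-fold in the middle class and 1.54-fold in the bright class. Where several probe sets move together the needed size is smaller. The smallest change called at 5 µM was 0.31 log2 in size.

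**Figure D2:**
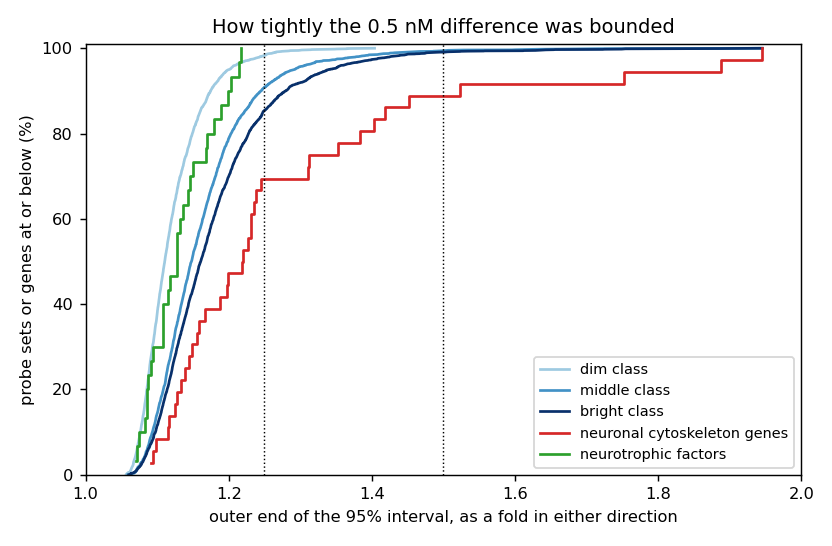
Cumulative share (%) of probe sets or genes against the outer end of the 95% interval, as a fold in either direction, for the dim, middle and bright classes of probe sets and for 2 gene lists. Of the neurotrophic factors, 30 of 30 lie left of the 25% margin, while of the neuronal cytoskeleton genes 25 of 36 do.

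The most tightly bounded bright genes were RPLP1 of the ribosomal stalk, COX4I1 of cytochrome c oxidase, FLOT2, RNPEP and SLC20A1, with outer bounds of 1.06 to 1.07-fold. The least bounded bright genes were ANK2, TMX1, NUDT21, NUCKS1 and ARID1A, of which ANK2 had an outer bound of 1.75-fold. In all, 44 probe sets lay outside 1.5-fold, among them NEFM, NEFH, MAP1B, ANK2, PTPN11 and MKI67 of the gene lists.

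Correlations and spreads of array pairs were alike within and across the groups, but other array quality values separated the groups. Pairs of arrays within a group correlated at 0.996 to 0.998 across probe sets, with an SD of their log2 difference of 0.108 to 0.168, and pairs across the groups had an SD of 0.119 to 0.153. Means over 9 hybridisation control probe sets were 8.40, 8.88 and 8.76 log2 untreated and 8.99, 8.89 and 9.04 at 0.5 nM. All treated arrays thus lay above all untreated ones. Array medians lay the other way, at 6.620, 6.639 and 6.636 untreated and 6.618, 6.597 and 6.598 at 0.5 nM. Whether these shifts bear on the split of lower and higher probe sets was not tested. Untreated replicate 1 had the lowest control mean. Without it 0 probe sets were called and 98.9% were bounded within 1.5-fold. Of 10 markers of noradrenergic neuroblasts 9 were measured, 8 of them above the dim class. TH, the rate-limiting enzyme of catecholamine synthesis, lay within it. All 9 had outer bounds within 1.5-fold. Fewer cells of a kind and less RNA per cell cannot be told apart in such bulk samples.

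Neurotrophic factors are secreted proteins that support neurons, and the signals of those measured were bounded throughout. For the 13 of 30 in the dim class the bound is one on signal and not on RNA. Of 37 genes in the list 30 were measured, 0 were called, and all 30 had outer bounds within the 25% margin, 27 of them under each alternative fit that kept their probe set. The fit without the dim class drops 13 of the 30, and the fit without _s_at and _x_at probe sets drops those types. Over all 7713 genes with 1 symbol, 7083 (91.8%) were bounded within the 25% margin. The median difference of the list was 0.011 log2, against -0.014 over all genes. MDK encodes midkine, a heparin-binding factor that promotes neurite growth. It read 10.91, 10.76 and 10.79 log2 in untreated cells and 10.79, 10.84 and 10.68 at 0.5 nM, a difference of -0.05 ± 0.06 (SE, n = 3 per group) with an outer bound of 1.14-fold. MANF, a protein of the endoplasmic reticulum with survival factor activity, read 10.03, 9.78 and 9.90 untreated and 10.05, 9.99 and 9.87 at 0.5 nM, with an outer bound of 1.17-fold. VGF, the precursor of neuropeptides that neurotrophins induce, read 8.57, 8.76 and 8.80 untreated and 8.78, 8.79 and 8.64 at 0.5 nM, with an outer bound of 1.13-fold. The groups overlapped in all 3 of these genes. BDNF lay in the dim class, at 5.00, 5.05 and 5.04 untreated and 5.02, 4.95 and 5.00 at 0.5 nM, so its outer bound of 1.09-fold is a bound on a dim signal. LIF had the smallest p of the 30, with a difference of -0.10 ± 0.04, overlapping groups and an outer bound of 1.15-fold. Among all 30 the widest bound was that of ARTN, a ligand of the RET receptor complex, at 1.22-fold.

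Among trophic factor receptors, 31 of 36 genes were measured, 0 were called, 27 were bounded within the 25% margin and all 31 within 1.5-fold, with a median difference of 0.0026 log2. FGFR1, a fibroblast growth factor receptor that S100B is reported to engage, read 7.94, 8.03 and 8.08 untreated and 8.20, 8.14 and 8.02 at 0.5 nM, a difference of 0.10 ± 0.09 with an outer bound of 1.23-fold. GFRA3, the coreceptor for artemin, had an outer bound of 1.16-fold. NTRK2, the receptor for BDNF, lay in the middle class and differed by 0.03, with an outer bound of 1.13-fold. NTRK3, NGFR and RET lay in the dim class, with outer bounds of 1.102-fold, 1.104-fold and 1.14-fold. TGFBR2, also in the dim class, had the smallest p of the list. It read 5.68, 5.66 and 5.69 untreated and 5.60, 5.54 and 5.53 at 0.5 nM, with non-overlapping groups. Its difference was -0.12 ± 0.05, with an outer bound of 1.17-fold and an adjusted p of 0.979 by limma. The 4 receptors outside the 25% margin were TGFBR1, MET, KIT and IGF2R, and all but IGF2R are named because of those values. KIT, the receptor for stem cell factor, read 6.57, 6.59 and 6.55 untreated and 6.403, 6.395 and 6.50 at 0.5 nM, and its groups did not overlap, at an adjusted p of 0.979 by limma. IGF2R, which clears IGF2 and sorts lysosomal enzymes, had the widest bound of the list at 1.46-fold, and its untreated arrays alone ran from 7.48 to 8.18.

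Of the adaptors and kinases that carry trophic signals, 27 of 42 genes were measured, 0 were called, 21 were bounded within the 25% margin and 26 within 1.5-fold, with a median of 0.0028 log2. The adaptor GRB2, which couples receptors to RAS, read 8.98, 8.88 and 9.03 untreated and 9.12, 9.04 and 9.09 at 0.5 nM, a difference of 0.12 ± 0.06 with non-overlapping groups and an outer bound of 1.203-fold. PTPN11, the phosphatase SHP2, had the widest interval. It read 6.75, 6.24 and 5.81 untreated and 6.24, 6.35 and 5.94 at 0.5 nM, and its outer bound was 1.504-fold. The untreated arrays of PTPN11 alone span a wider range than the difference between the groups. For the trophic lists together, 88 genes were measured and 78 were bounded within the 25% margin, 70 of them under each alternative fit that kept their probe set.

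**Figure D3:**
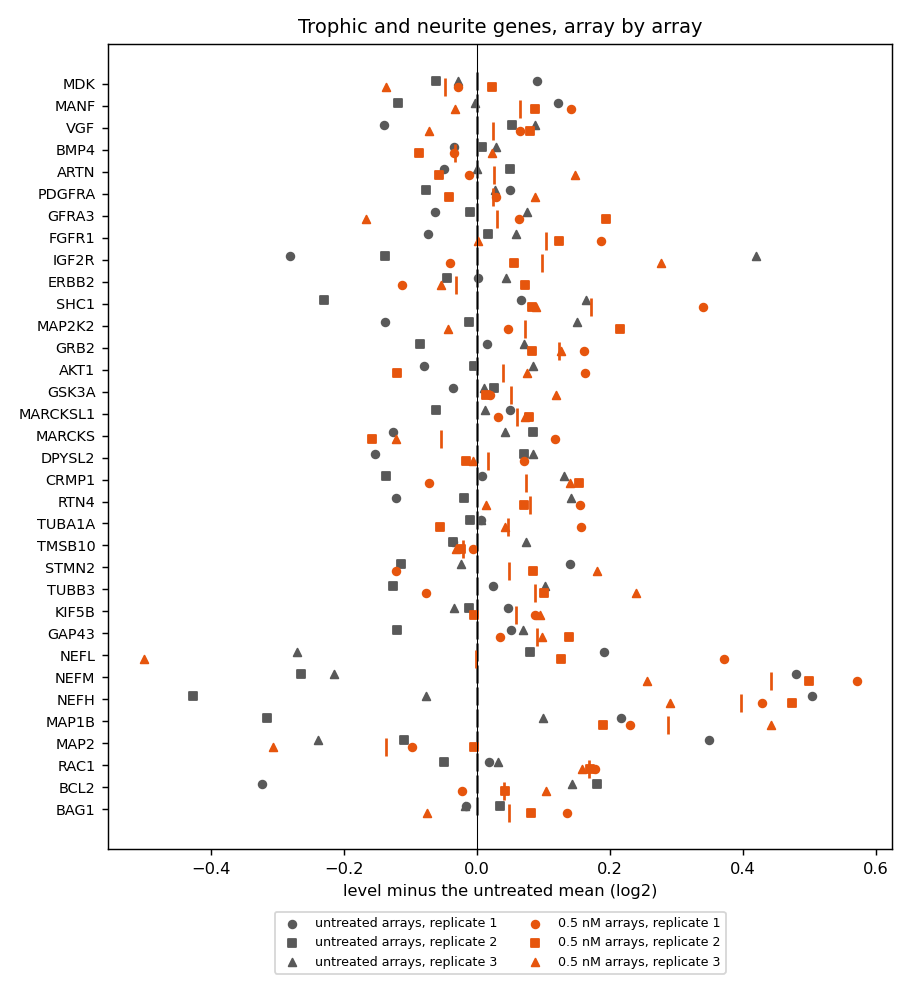
Level minus the untreated mean (log2, horizontal axis) on each array for trophic and neurite genes, with untreated arrays in grey, 0.5 nM arrays in orange, symbol shapes for replicates and a vertical tick at each group mean. NEFM and NEFH show untreated replicate 1 among the 0.5 nM arrays and the other untreated arrays below them.

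Neurite growth and growth cone genes encode adhesion molecules, guidance cues and receptors, and membrane proteins of the growing tip. Of 51 genes 44 were measured, 0 were called, 36 were bounded within the 25% margin and all 44 within 1.5-fold, with a median of -0.016 log2. GAP43, the growth cone protein used as a marker of axon growth, read 8.86, 8.69 and 8.88 log2 untreated and 8.84, 8.95 and 8.91 at 0.5 nM, a difference of 0.09 ± 0.11 with an outer bound of 1.26-fold. BASP1, a related membrane protein, read 10.02, 9.92 and 9.91 untreated and 9.85, 9.91 and 10.02 at 0.5 nM, with an outer bound of 1.27-fold. Both genes overlapped between the groups. DPYSL2 and DPYSL3, which act in axon growth, and MARCKSL1, an actin-binding membrane protein, each had an outer bound of 1.12-fold. The 8 genes outside the 25% margin were GAP43, NRCAM, BASP1, NCAM1, NELL1, UNC5C, L1CAM and CNTN1. The adhesion molecule CNTN1 had the widest outer bound of these, 1.43-fold, with values of 10.14, 9.86 and 9.80 untreated and 9.98, 9.68 and 9.53 at 0.5 nM.

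Neuronal cytoskeleton genes were the least tightly bounded of the lists without cell type markers. Of 43 genes 36 were measured, 0 were called, 25 were bounded within the 25% margin and 32 within 1.5-fold, and 15 stayed within the 25% margin under each alternative fit that kept their probe set. The median half-width of their intervals was 0.204 log2, against 0.135 over all genes, and the median difference was 0.031. A lone member needed a median difference of 1.76-fold to be called.

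Within this list the neurofilament genes had unlike point estimates. NEFM, the medium chain, read 8.45, 7.70 and 7.75 log2 in untreated cells and 8.54, 8.47 and 8.22 at 0.5 nM. NEFH, the heavy chain, named after its values were seen, read 8.88, 7.94 and 8.30 untreated and 8.80, 8.85 and 8.66 at 0.5 nM. In both, untreated replicate 1 lay with the 0.5 nM arrays and the other untreated arrays below them, so the groups overlapped. The difference was 0.44 ± 0.23 for NEFM, with a 95% interval of -0.077 to 0.96, and 0.40 ± 0.23 for NEFH, with an interval of -0.12 to 0.92, each at an adjusted p of 0.979 by limma. Over the alternative fits the difference of NEFM ran from 0.31 to 0.68 and its adjusted p from 0.759 to 1. The outer bounds of 1.95-fold and 1.89-fold are the widest of the list, and a lone change of NEFM would have had to reach 4.199-fold to be called.

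The light chain NEFL read 9.47, 9.36 and 9.01 untreated and 9.65, 9.41 and 8.78 at 0.5 nM, a difference of -0.0014 ± 0.21 with an outer bound of 1.38-fold. The related filament genes INA, encoding internexin, and PRPH, encoding peripherin, differed by 0.03 and -0.014, with outer bounds of 1.13-fold and 1.16-fold, and both are named because of their values. The NEFM and NEFH differences were larger than those of the other 3 filament genes, but the difference between genes was not tested. At 5 µM NEFM read 7.84, 7.94 and 8.61, values that overlap those of both other groups.

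Microtubule genes fell on both sides of the 25% margin. TUBB3, the neuronal beta tubulin, read 11.76, 11.61 and 11.84 untreated and 11.66, 11.84 and 11.98 at 0.5 nM, with an outer bound of 1.23-fold. STMN2, which regulates microtubule turnover in growth cones, read 12.28, 12.03 and 12.12 untreated and 12.02, 12.23 and 12.33 at 0.5 nM, with an outer bound of 1.22-fold. TUBA1A, DCX, STMN1 and TMSB10, abundant cytoskeletal proteins of immature neurons, had outer bounds of 1.14-fold, 1.12-fold, 1.13-fold and 1.099-fold. For these bright genes the groups overlapped and changes above the stated folds lie outside the intervals. MAPT, encoding tau, had an outer bound of 1.24-fold. MAP2, the dendritic microtubule protein, differed by -0.14 with an outer bound of 1.40-fold. MAP1B, named after its values were seen, read 7.65, 7.11 and 7.53 untreated and 7.66, 7.62 and 7.87 at 0.5 nM, a difference of 0.29 ± 0.14 with an outer bound of 1.52-fold.

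The kinesin subunit KIF3A had the smallest p of the cytoskeleton list. It read 5.72, 5.64 and 5.61 untreated and 5.79, 5.90 and 5.85 at 0.5 nM, a difference of 0.19 ± 0.05 with non-overlapping groups, in the dim class. ANK2, the membrane adaptor ankyrin-B, differed by 0.04 with an outer bound of 1.75-fold, and its arrays spread from 7.41 to 7.96 untreated and from 7.53 to 8.19 at 0.5 nM.

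RAC1, the GTPase that drives lamellipodia, read 12.10, 12.04 and 12.12 untreated and 12.26, 12.25 and 12.24 at 0.5 nM. All 3 treated arrays lay above all 3 untreated arrays, by 0.17 ± 0.04 (95% interval 0.081 to 0.26), which is at most 1.19-fold at the outer end. Its adjusted p was 0.979 by limma, and from 0.503 to 1 over the alternatives, where the difference ran from 0.13 to 0.20. At 5 µM RAC1 read 12.16, 12.16 and 12.13, above the untreated arrays and below those at 0.5 nM. RAC1 was the one gene of the bright class among the 12 of smallest p.

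Of the synapse and secretory granule genes, 31 of 48 were measured, 0 were called, 25 were bounded within the 25% margin and all 31 within 1.5-fold, with a median of 0.019 log2. SNCG, in the dim class, had the smallest p of the list. It read 5.82, 5.88 and 5.85 untreated and 5.74, 5.77 and 5.66 at 0.5 nM, with non-overlapping groups. Its difference was -0.13 ± 0.04, with an outer bound of 1.17-fold and an adjusted p of 0.979 by limma. The other probe set of SNCG differed by -0.10, with overlapping groups. SNAP25, a SNARE protein of vesicle release, read 9.90 on all 3 untreated arrays and 9.91, 9.56 and 9.57 at 0.5 nM, a difference of -0.22 ± 0.09 with an outer bound of 1.34-fold. Replicate 1 at 0.5 nM lay with the untreated arrays, so the groups overlapped. NPY, neuropeptide Y, read 10.85, 10.36 and 10.53 untreated and 11.01, 10.84 and 10.53 at 0.5 nM, with an outer bound of 1.45-fold. CHGA, the granule protein chromogranin A, differed by 0.19 ± 0.09 with an outer bound of 1.31-fold. Neither passed, at an adjusted p of 0.979 each by limma.

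The listed survival and death genes of the BCL2 and IAP families were bounded nearly throughout. Of 38 genes 33 were measured, 0 were called, 31 were bounded within the 25% margin and all 33 within 1.5-fold, with a median of 0.00014 log2. The groups did not overlap for 0 of the 33, beside 7.65% of all probe sets. The exceptions in the list at the 25% margin were BCL2 and BNIP3, with outer bounds of 1.29-fold and 1.30-fold. BIRC7, the inhibitor of apoptosis among the genes of smallest p, is not in the list. Its groups did not overlap, and its outer bound of 1.27-fold lay outside the 25% margin. BCL2, the founding survival factor of the family, read 5.94, 6.44 and 6.41 untreated and 6.24, 6.31 and 6.37 at 0.5 nM, a difference of 0.04 ± 0.15. BAG1, a partner of BCL2, read 8.88, 8.93 and 8.88 untreated and 9.03, 8.98 and 8.82 at 0.5 nM, with an outer bound of 1.16-fold. MCL1 had an outer bound of 1.13-fold.

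**Figure D4:**
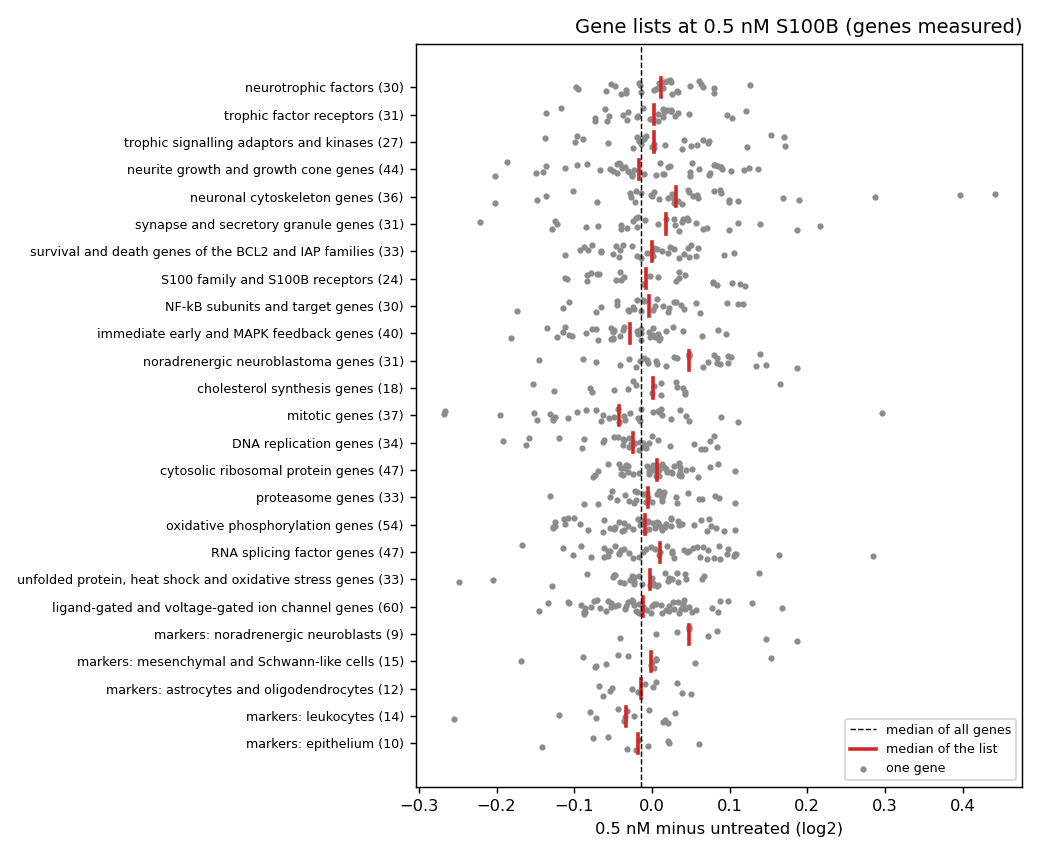
Difference between 0.5 nM and untreated (log2, horizontal axis) for every measured gene of the lists shown, 1 grey point per gene, with the list median as a red bar and the median of all genes as a dashed line. The list medians run close to the dashed line at -0.014, and the widest scatter is that of the neuronal cytoskeleton genes.

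The receptors and immediate targets of S100B gave no called gene. The list of S100 family members and receptors for S100B also holds HMGB1, which is neither. All 24 genes were measured and all 24 were bounded within the 25% margin, with a median of -0.0072 log2. In the dim class lay 10 of the 24. AGER read 5.93, 5.88 and 5.84 untreated and 5.93, 5.99 and 6.08 at 0.5 nM, a difference of 0.12 ± 0.05 with an outer bound of 1.18-fold and an adjusted p of 0.979. S100B itself read 5.56, 5.73 and 5.56 untreated and 5.56, 5.53 and 5.56 at 0.5 nM, with an outer bound of 1.14-fold. Both lay in the dim class, where the signal may understate a change in RNA. S100A6, the one S100 gene in the bright class, had an outer bound of 1.17-fold.

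Among NF-kB subunits and target genes, 30 of 35 were measured, 29 were bounded within the 25% margin and all 30 within 1.5-fold, with a median of -0.0041 log2. NFKBIA, the inhibitor that NF-kB induces as feedback, read 8.110, 8.279 and 8.306 untreated and 8.313, 8.313 and 8.402 at 0.5 nM. The groups did not overlap, by a narrow gap. Its difference was 0.11 ± 0.08 with an outer bound of 1.22-fold and an adjusted p of 0.979 by limma. RELA and NFKB1, the subunits of the classical dimer, had outer bounds of 1.17-fold and 1.12-fold. CD83, an immunoglobulin-type surface protein, lay on that margin, with an outer bound of 0.32 log2, and 16 of the 30 genes were in the dim class. Of the immediate early and MAPK feedback genes, 40 of 49 were measured, 37 were bounded within the 25% margin and all 40 within 1.5-fold, with a median of -0.028. DUSP5, a phosphatase of nuclear ERK, read 6.47, 6.44 and 6.36 untreated and 6.32, 6.19 and 6.22 at 0.5 nM, a difference of -0.18 ± 0.05 with non-overlapping groups and an adjusted p of 0.979 by limma. FOS and EGR1, induced within minutes to hours of growth factor signalling, had outer bounds of 1.08-fold and 1.103-fold, FOS in the dim class.

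Most of the following classes had a larger share within the 25% margin than the 91.8% of all genes. Only the ribosomal and ion channel lists had narrower median half-widths, 0.111 and 0.124 log2 against 0.135 over all genes. The others had 0.139 for oxidative phosphorylation, 0.150 for proteasome, 0.169 for stress and 0.172 for cholesterol synthesis genes. Of 47 cytosolic ribosomal protein genes 46 were bounded within the 25% margin, with a median of 0.0071 log2, and RPL38 was the exception at 1.35-fold. Of 54 oxidative phosphorylation genes 53 were so bounded (median -0.0091), and of 33 proteasome genes 32 (median -0.0049). Of 33 unfolded protein, heat shock and oxidative stress genes 31 were bounded within the 25% margin (median -0.0019), with GSR of glutathione reduction and the stress sensor ERN1 outside it at 1.41-fold each, ERN1 named after its values were seen. Of 60 ion channel genes 54 were bounded within the 25% margin (median -0.012), 29 of the 60 in the dim class. The 18 measured genes of cholesterol synthesis had a median of 0.0015 and 17 within the 25% margin.

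Genes of cell division and RNA splicing had smaller shares within the 25% margin. Their median half-widths were 0.167 log2 for mitotic, 0.151 for DNA replication and 0.168 for splicing genes, no wider than those of the stress and cholesterol lists. Of 37 mitotic genes 30 were within the 25% margin and 36 within 1.5-fold (median -0.042), of 34 DNA replication genes 29 and 34 (median -0.024), and of 47 RNA splicing factor genes 39 and 47 (median 0.011). MKI67, the proliferation antigen, read 7.25, 7.25 and 7.35 untreated and 7.36, 7.54 and 7.84 at 0.5 nM, a difference of 0.30 ± 0.17 with non-overlapping groups and an outer bound of 1.60-fold. HNRNPL, a regulator of splicing, read 8.99, 9.03 and 9.25 untreated and 9.19, 9.53 and 9.41 at 0.5 nM, a difference of 0.29 ± 0.09. Neither passed, at an adjusted p of 0.979 each by limma.

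Noradrenergic neuroblastoma genes, which define the sympathetic lineage of such cells, had 25 of 31 measured members within the 25% margin and all 31 within 1.5-fold, with a median of 0.048 log2. DBH, which converts dopamine to noradrenaline, read 10.44, 10.11 and 10.62 untreated and 10.67, 10.58 and 10.36 at 0.5 nM, with an outer bound of 1.36-fold. MYCN, the oncogene of aggressive neuroblastoma, had an outer bound of 1.11-fold. Of the marker lists, noradrenergic neuroblasts had a mean per array of 9.49 to 9.75 untreated and 9.68 to 9.74 at 0.5 nM, with 6 of 9 genes within the 25% margin. Mesenchymal and Schwann-like markers ran from 6.47 to 6.52 untreated and 6.46 to 6.49 at 0.5 nM, with 14 of 15 genes within the 25% margin. Astrocyte and oligodendrocyte markers ran from 6.11 to 6.16 and 6.10 to 6.14, with 12 of 12. Leukocyte markers ran from 6.23 to 6.34 and 6.22 to 6.29, with 12 of 14, and epithelial markers from 5.76 to 5.81 and 5.74 to 5.76, with 10 of 10. The ranges of the groups overlapped in each marker list. In the dim class lay 9 of 15 mesenchymal, 7 of 12 astrocyte and oligodendrocyte, 4 of 14 leukocyte and 6 of 10 epithelial markers. PTPRC, GFAP and EPCAM were among these. In the bright class lay VIM, TWIST1 and THY1 of the mesenchymal list, GLUL of the astrocyte list and CD4 of the leukocyte list.

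The comparison with 5 µM shows what the same arrays registered when transcripts did change. At 5 µM against untreated 16 probe sets were called (0.183% of 8746), 12 of them with 1 gene symbol, most of these enzymes of cholesterol synthesis. That count was 1 with an unmoderated test, 3, 6 and 5 without untreated replicates 1, 2 and 3, 6, 1 and 9 without 5 µM replicates 1, 2 and 3, and 10 without 0.5 nM replicate 2. Both dose comparisons share the untreated arrays, so the difference between the doses was tested directly. HMGCS1, which makes HMG-CoA, read 8.82, 8.74 and 9.17 untreated, 9.17, 8.88 and 8.81 at 0.5 nM, and 7.76, 7.80 and 7.73 at 5 µM. The arrays at 0.5 nM overlapped the untreated arrays and lay above all 3 arrays at 5 µM. Its 0.5 nM difference of 0.04 ± 0.12 had an outer bound of 1.23-fold. ABCG1, a sterol exporter and the one called gene that was higher at 5 µM, read 5.42, 5.42 and 5.60 untreated, 5.86, 5.61 and 5.32 at 0.5 nM, and 6.47, 6.73 and 6.62 at 5 µM, with an outer bound of 1.31-fold at 0.5 nM. At 0.5 nM, 14 of the 16 probe sets were bounded within the 25% margin and all 16 within 1.5-fold. For all 16 the change at 5 µM lay outside the 0.5 nM interval. The 16 were picked by that change, so its position is no independent evidence of a dose difference.

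Between 5 µM and 0.5 nM, 14 probe sets were called over the whole array (0.16%), 13 of them lower at 5 µM (0.149%). Of the 16 called against untreated 14 passed, a share not independent of their choice, which used the same 5 µM arrays. FDPS, LSS, SQLE, MSMO1, DHCR7, IDI1, INSIG1 and HSD17B7 of the sterol pathway, the muscarinic receptor CHRM3 and the phosphatase PPEF1 passed with HMGCS1 and ABCG1. The count of 14 depended on the fit. It was 1 with an unmoderated test and 2 with only the groups compared. Leaving out 0.5 nM replicates 1, 2 and 3 gave 5, 5 and 4, leaving out 5 µM replicates 1, 2 and 3 gave 2, 1 and 8, and leaving out untreated replicates 1, 2 and 3 gave 9, 8 and 6. Of those 9 fits, HMGCS1 and MSMO1 passed in 7, ABCG1 and CHRM3 in 5, LSS in 4, FDPS and DHCR7 in 3, HSD17B7 and SQLE in 2, PPEF1 in 1, and INSIG1 and IDI1 in 0.

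**Figure D5:**
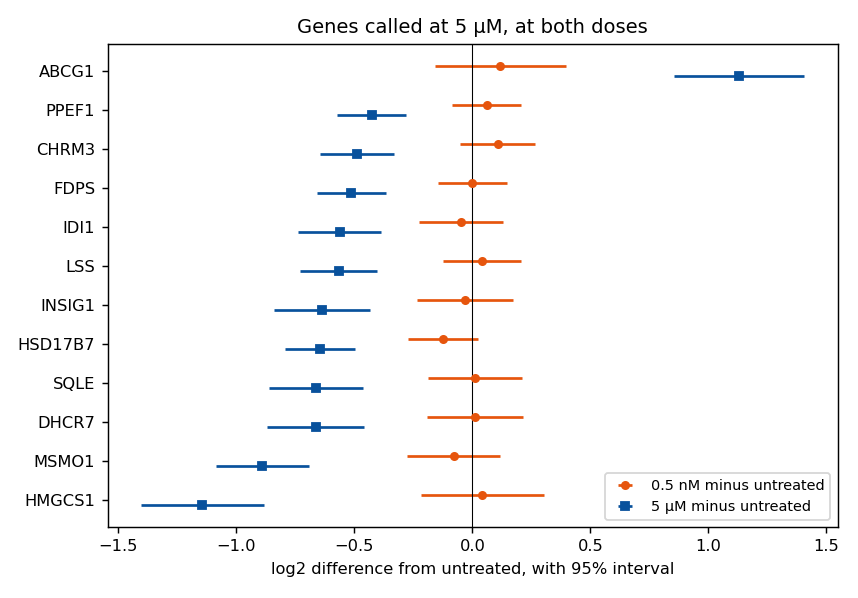
Log2 difference from untreated with its 95% interval (horizontal axis) for the 12 genes with 1 symbol called at 5 µM, at 0.5 nM (orange circles) and 5 µM (blue squares). The 0.5 nM intervals lie around 0 and the 5 µM values lie outside them, ABCG1 on the higher side and the other 11 on the lower. The genes were picked by their change at 5 µM.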

How the data were processed

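RNA from LAN-5 cells was measured on 9 Affymetrix 1-colour arrays. The values are log2 expression per probe set as deposited, made by the authors with GCRMA, a tool named per the submitters' processing notes, whose version and settings are not given. GCRMA corrects background, normalises between arrays and summarises probes, and can compress dim differences. Depth has no count here, and the number of arrays limits the precision.

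limma 3.58.1 in R 4.3.3 (lmFit, eBayes) was fitted to all 9 arrays with 3 groups from the sample titles, over 8746 probe sets with no filter, with Benjamini-Hochberg adjustment and a threshold of 0.05. The prior had 3.62 degrees of freedom and an SD of 0.0696 log2. An exact permutation test of 3 against 3 arrays cannot go below p = 0.1. The procedure was tested on simulated data. Alternatives covered the filter, scaling, moderation, the replicate block, probe set type, interval level and each array left out. Leaving out 5 µM arrays was added after seeing the data.

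Gene symbols came from the platform annotation, updated through RefSeq. Of the probe sets 7840 had 1 symbol, 388 several and 518 none, and 3678 are of types (_s_at, _x_at) that can match several transcripts. The 26 lists hold 1001 genes, 795 of them measured, each by its brightest probe set. The results of 1 list are not reported here. Genes named were drawn from the 12 of smallest p and a fixed set of trophic, neurite and signalling genes. Further ones came from the genes called at 5 µM, the S100 genes, and the widest and narrowest bright intervals. Per list they came from the brightest 6 in most lists, the smallest p and the widest interval. Not every gene so picked is named. Others in the text, such as those just outside a margin, were named after their values were seen. Members and lists were chosen with earlier results of these data known.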

Additional observations from a re-analysis of the deposited data

Results flagged for a closer look

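For 12 genes the effect of S100B differed between the doses by limma's direct contrast of 5 µM against 0.5 nM, with an adjusted p under 0.05. On the log2 scale, 5 µM minus 0.5 nM, the difference was -1.19 for HMGCS1, -0.81 for MSMO1, -0.68 for DHCR7, -0.67 for SQLE, -0.61 for LSS, -0.61 for INSIG1, -0.52 for HSD17B7, -0.51 for FDPS and -0.51 for IDI1, all of the sterol pathway. It was -0.60 for CHRM3 and -0.49 for PPEF1. ABCG1, the sterol exporter, differed the other way, by 1.01. With each of the 9 arrays left out in turn, HMGCS1 and MSMO1 passed in 7 fits, ABCG1 and CHRM3 in 5, LSS in 4, FDPS and DHCR7 in 3, HSD17B7 and SQLE in 2, PPEF1 in 1, and INSIG1 and IDI1 in 0. The genes were picked by their change at 5 µM, so the size there is no independent evidence, and the 0.5 nM values are those given above.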

How the results depend on the processing

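The count of 0 called probe sets at 0.5 nM was the same in every alternative, and the share bounded within 1.5-fold ran from 98.4% to 99.8% over the alternative fits, but fell to 48.7% with the Bonferroni-widened interval. The 14 probe sets called between the doses became 1 with an unmoderated test, 2 with only the groups compared and 7 without _s_at and _x_at probe sets, and ranged from 1 to 9 when each array was left out. With the replicate number as a block, 0 were called at 0.5 nM, 402 had an unadjusted p under 0.05, 99.8% were bounded within 1.5-fold and 13 passed between the doses. Deviations of same-numbered arrays correlated at 0.065, -0.0030 and 0.29, and those of differently numbered arrays at -0.20 to 0.13. The numbers were not taken as pairs, a choice that these values do not settle. Of 617 values of 36 named genes under the alternatives, 614 moved by less than the spread between replicates and 3 by more. Signal over background per probe set was not used here. Bounds on dim probe sets are bounds on signal.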
